A study of Mus musculus with 10 samples.

Results

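Hepcidin and the genes around it in hepatic iron handling were followed through the livers of reciprocal F1 mice and their inbred parents. The set holds 10 of the 41388 genes in the deposited tables, listed by symbol: Hamp, Hamp2, Tfrc, Tfr2, Trf, Slc40a1, Hfe, Bmp6, Fth1 and Id1. All 10 were found, and all 10 passed the filter on low counts in every comparison. They are taken by symbol, without a threshold on their values, from a choice of genes that was made with earlier results of these data known.

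Liver RNA was sequenced from 10 mice aged 10 weeks. In the 3 matBFMI males the mother was BFMI860-12/Hber (BFMI) and the father C57BL/6NCrl (B6N), and in the 3 patBFMI males the parents were the other way round. BFMI, an inbred line bred for obesity, and B6N, a lean inbred strain, each gave 1 male and 1 female. The comparison of the F1 groups asks what depends on the direction of the cross, and the inbred libraries serve as parental controls. No gene was deleted and no agent was given in any group. All F1 mice received a high fat diet from weaning. For the inbred mice the sample records state standard breeding diet, whereas the study's text states high fat diet. The F1 males of a group came from different mothers. With 1 animal of each sex per inbred strain, the strain and sex values rest on single animals in each cell of the design.

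Hepcidin is a peptide hormone made by hepatocytes that lowers plasma iron: it binds ferroportin, the iron exporter encoded by Slc40a1, and has it degraded. Its gene is induced through bone morphogenetic protein (BMP) signalling, in which sinusoidal endothelial cells supply BMP6 and hepatocytes respond with the co-receptor hemojuvelin, HFE and transferrin receptor 2, and through inflammatory cytokines acting by STAT3. Iron in plasma is carried by transferrin (Trf), enters cells by transferrin receptor 1 (Tfrc) and is stored in ferritin (Fth1). Id1 is a classical target gene of BMP signalling.

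Mice carry a pair of hepcidin genes in tandem, and their start regions are shown because the genes differed in how they varied between animals. Hamp (ENSMUSG00000050440, chr7:30942368-30944032, minus strand) and Hamp2 (ENSMUSG00000056978, chr7:30922372-30924681, minus strand) are placed on GRCm38. The 250 bases before each start site, from RefSeq on GRCm38.p6, lie at chr7:30944030-30944279 for Hamp and at chr7:30924182-30924431 for Hamp2. Both are written 5′ to 3′ on the minus strand. Capitals mark the hexamer of the BMP response element or the bases aligned to it, and, after it, the STAT element.

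Hamp: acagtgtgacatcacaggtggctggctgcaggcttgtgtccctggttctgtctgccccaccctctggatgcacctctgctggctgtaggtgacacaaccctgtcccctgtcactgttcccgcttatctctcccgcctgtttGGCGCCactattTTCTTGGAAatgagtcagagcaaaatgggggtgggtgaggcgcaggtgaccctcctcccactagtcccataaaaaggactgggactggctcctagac

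Hamp2: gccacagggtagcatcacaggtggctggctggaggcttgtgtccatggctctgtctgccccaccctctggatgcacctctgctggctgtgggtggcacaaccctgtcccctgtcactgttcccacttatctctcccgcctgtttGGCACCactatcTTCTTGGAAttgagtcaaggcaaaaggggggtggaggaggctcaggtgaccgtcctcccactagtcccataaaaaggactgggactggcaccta

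Both windows were 89.7% identical over 253 aligned columns. The hexamer GGCGCC began 109 bases before the start site of Hamp, and the aligned bases of Hamp2, at 106 bases before the start site, read GGCACC. The substitution is G4A, with positions counted from 1 at the 5′ end of the hexamer and Hamp taken as the reference. GGCGCC is its own reverse complement and occurred in 9.59% of 32851 RefSeq promoter windows of this length. The STAT element TTCNNNGAA, searched on both strands, was present in both genes, 97 bases before the start of Hamp and 94 before that of Hamp2, and in 7.02% of all windows. E-boxes (CANNTG) were present in both windows as well, and in 66.2% of all windows. These matches describe letters only. Promoter windows were at hand for 7 of the 10 genes, and not for Trf, Slc40a1 and Id1. GGCGCC also occurred 89 bases before a start site of Tfrc, and not in the windows of Tfr2, Hfe, Bmp6 and Fth1.

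Iron responsive elements, stem-loops bound by the iron regulatory proteins in cells short of iron, are shown for the genes whose messages carry them. The loop CAGTGN, where N is any base but G, was sought with 5 bases on each side that pair with each other and an unpaired C before them, which found an element in 3 of the 10 genes and in 222 of 21901 protein-coding genes, or 1.01%. Capitals mark the loop, sequences are those of the transcript from GENCODE M21 on GRCm38, and each site spans 27 bases. Fth1 holds 1 element in the 5′ UTR at chr19:9982733-9982759 on the plus strand, and Slc40a1 holds 1 in the 5′ UTR at chr1:45925466-45925492 on the minus strand. Tfrc holds 4 in the 3′ UTR on the plus strand, from chr16:32631220-32631246 to chr16:32631711-32631737.

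Fth1: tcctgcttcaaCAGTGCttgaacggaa

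Slc40a1: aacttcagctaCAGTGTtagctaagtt

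Tfrc, first: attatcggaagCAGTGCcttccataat

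Tfrc, after it: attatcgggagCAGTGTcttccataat

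Tfrc, next: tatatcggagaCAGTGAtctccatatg

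Tfrc, last: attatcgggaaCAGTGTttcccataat

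Per library, 46988713 to 96023811 reads were assigned to genes. Among the F1 libraries patBFMI 1 stood apart at similar depth, with 32421 genes that had a count against 22095 to 26694 in the other 5. In this it was like the 4 inbred libraries, which had 29942 to 34572 genes with a count. The matBFMI libraries were all sequenced on lane 6 and the patBFMI libraries all on lane 5, so the lane and the cross cannot be told apart. The BFMI male was sequenced on lane 1 and the other inbred libraries on lane 4. Every one of the 59 cell type markers in the tables had counts in all 10 libraries, with summed hepatocyte markers at 71497 to 97551 CPM. CPM are read counts corrected for depth with TMM scaling of the libraries, and do not correct for length. In bulk liver, fewer cells of a type and less RNA per cell cannot be told apart.

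**Figure D1:**
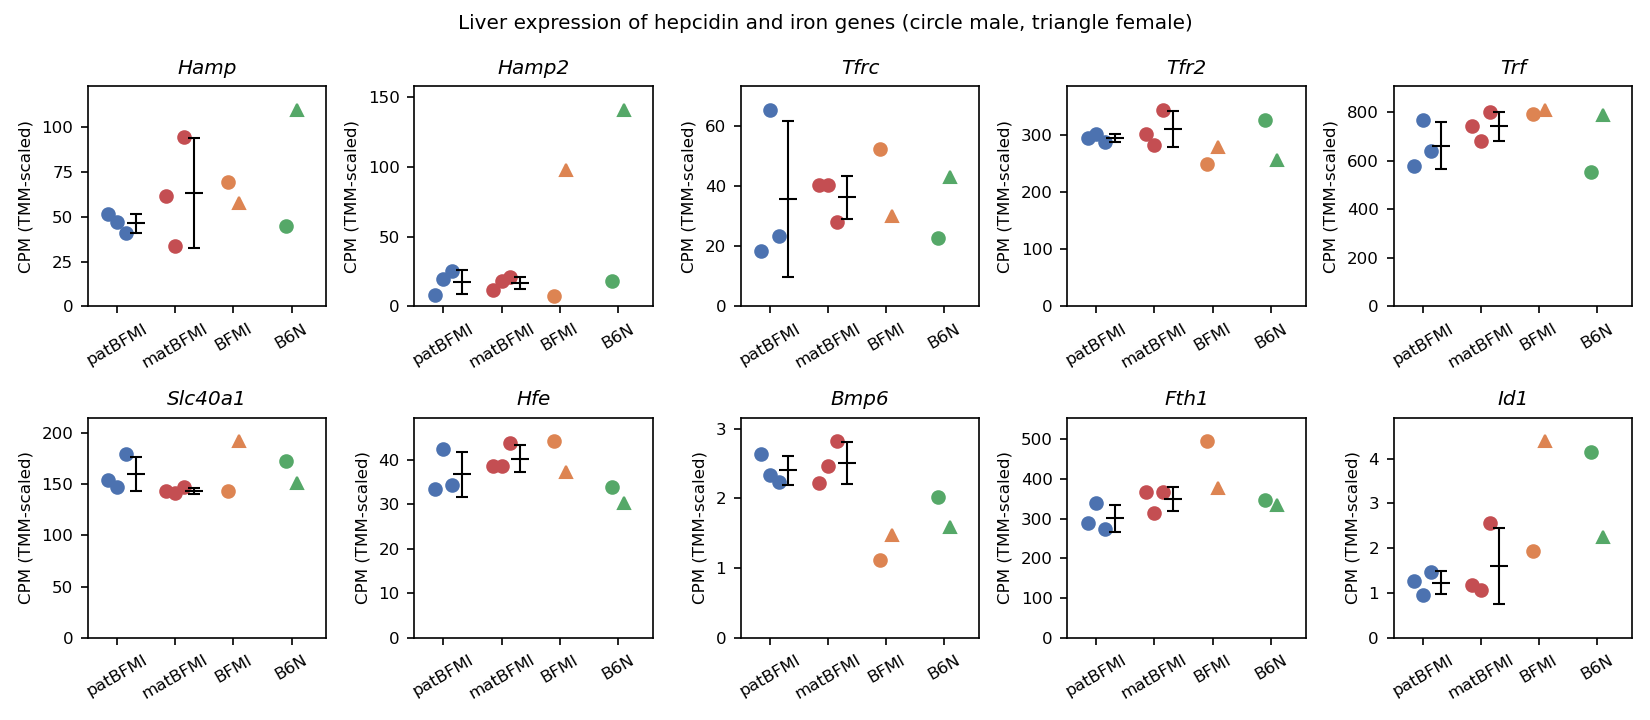
CPM after TMM scaling of each of the 10 genes (y axis, linear, from 0) in every library, by group. Circles are males, triangles are females, and the black bar beside the F1 points is the mean ± SD (n = 3). The Hamp2 triangles, at 97.9 and 141.0 CPM, stand above all circles, the highest of which is at 25.2 CPM.

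Per length, the ferritin gene Fth1 was the most abundant member, with a median of 400.0 RPKM over the 10 libraries and a range of 318.0 to 581.0. Trf followed at a median of 206.0 RPKM, Hamp at 145.0, Tfr2 at 94.8, Hamp2 at 40.8, Slc40a1 at 17.0, Hfe at 10.6, Tfrc at 5.80, Id1 at 2.11 and Bmp6 at 1.17. Fth1 lay above Trf in every library, and the ranges also did not overlap between Hamp2 and Slc40a1 or between Slc40a1 and Hfe. All other neighbours in that order overlapped in their RPKM ranges. RPKM here are the authors' values, read counts corrected for gene length and depth after quantile normalization. On the CPM scale, which does not correct for length, the highest library exceeded the lowest by a factor of 19.2 for Hamp2, 4.57 for Id1, 3.58 for Tfrc, 3.26 for Hamp and 2.54 for Bmp6. That factor was 1.81 for Fth1, and between 1.36 and 1.47 for Slc40a1, Tfr2, Hfe and Trf. Plasma carrier, hepatocyte sensor and exporter thus varied least between these animals, and the hepcidin genes, Id1 and Tfrc varied most.

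Hamp encodes hepcidin itself. It stood at 51.4, 46.9 and 40.9 CPM in patBFMI 1 to 3 and at 61.5, 33.6 and 94.7 CPM in matBFMI 1 to 3. The BFMI male had 69.3 and the BFMI female 58.0 CPM, and the B6N male had 45.2 and the B6N female 110.0 CPM. The matBFMI values enclosed the patBFMI values, with matBFMI 2 the lowest and matBFMI 3 the second highest of all libraries. The group means were 63.3 ± 30.6 CPM in matBFMI and 46.4 ± 5.30 in patBFMI (SD, n = 3 each). The log2 fold change was 0.43 (SE 0.303, adjusted p = 0.685, quasi-likelihood test of edgeR). BFMI over B6N gave -0.15 (adjusted p = 0.919), F1 over inbred -0.10 (adjusted p = 0.913) and female over male 0.51 (adjusted p = 0.951).

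Hamp2, the tandem copy of the hepcidin gene in mice, was higher in the livers of both females than in any male. It stood at 97.9 CPM in the BFMI female and 141.0 CPM in the B6N female, against 7.36 CPM in the BFMI male and 18.0 CPM in the B6N male. The F1 males had 8.46, 19.4 and 25.2 CPM in patBFMI 1 to 3 and 12.0, 18.1 and 20.7 CPM in matBFMI 1 to 3. No male of any group came near the females. The F1 groups overlapped, the B6N male lay within their range, and the BFMI male was the lowest of all libraries. Female over male, the log2 fold change was 3.35 (SE 0.448, adjusted p = 0.0116 by edgeR), a 10.2-fold difference. The spread in this test was shared with the F1 males, as each strain gave 1 female and 1 male. Hamp2 was the only 1 of the 10 genes past an adjusted p of 0.05 in this comparison, where 0.556% of 19974 genes tested were called and 0.310% were called higher in females. The same 1 of 10 had an unadjusted p below 0.05, against 7.80% of all genes. It was also the only 1 of 10 with both females above both inbred males, which held for 13.8% of all genes. Within lane 4, where both B6N libraries were run, the log2 difference was 2.97, and between the BFMI animals, run on lanes 4 and 1, it was 3.73. Leaving out any 1 of the 4 inbred libraries ended the call, with log2 fold changes between 2.94 and 3.74 and adjusted p between 0.0927 and 0.106. In the other 9 settings tried, adjusted p was at most 0.0182 (lowest 2.28e-64), with log2 fold changes from 3.04 to 3.36.

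For the other comparisons, Hamp2 gave values that did not pass the test. The matBFMI mean was 16.9 ± 4.49 CPM and the patBFMI mean 17.7 ± 8.48 CPM (SD, n = 3 each), with a log2 fold change of -0.07 (adjusted p = 0.97) that turned to 0.00 when libraries were scaled by size alone. BFMI over B6N gave -0.90 (SE 0.416, adjusted p = 0.291). That value was called when only the 4 inbred libraries entered the fit (-0.89, adjusted p = 0.000856) and when no filter on low counts was used (-0.81, adjusted p = 0.000163). F1 over inbred, with sex in the fit, gave 0.57 (adjusted p = 0.437), which was called without the filter (0.57, adjusted p = 0.00593).

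Hamp and Hamp2 did not keep a fixed ratio between libraries. Of the reads assigned to either gene, Hamp2 took 62.8% in the BFMI female (95% Wilson interval 61.7 to 63.8%) and 56.3% in the B6N female (55.4 to 57.2%). In the 8 males the share ranged from 9.61% in the BFMI male (8.97 to 10.3%) to 38.1% in patBFMI 3 (36.6 to 39.6%), with a median of 23.2%. The intervals cover counting error only, and the shares were not tested. Within each F1 group the share varied by more than counting error, from 14.1 to 38.1% in patBFMI and from 16.3 to 35.0% in matBFMI, and the groups overlapped. Per length, Hamp exceeded Hamp2 by a factor of 1.86 to 7.88 in the males on the RPKM scale, whereas the ratio was 0.671 in the BFMI female and 0.881 in the B6N female. Together the hepcidin genes reached 156.0 CPM in the BFMI female and 251.0 CPM in the B6N female, against 51.8 to 115.0 CPM in males. The aligned transcripts are 93.0% identical over 417 columns and share runs of up to 87 bases, so how reads were split between them is uncertain.

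**Figure D2:**
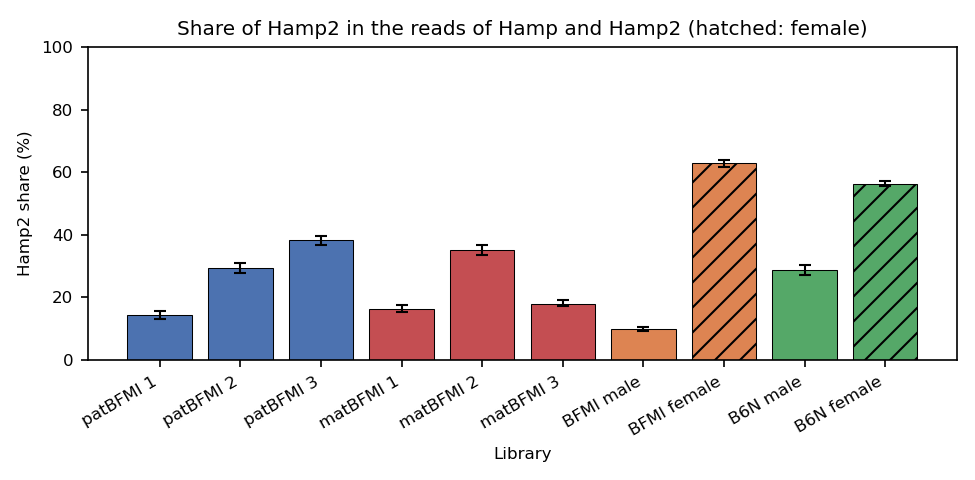
Share of Hamp2 in all reads assigned to Hamp or Hamp2 (y axis, percent, from 0) for each library (x axis), with 95% Wilson intervals that cover counting error. Hatched bars are females, at 62.8% and 56.3%, and the male bars end between 9.61% and 38.1%.

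The sex difference of Hamp took opposite signs in the strains. Female over male, the log2 difference was -0.26 between the BFMI animals and 1.28 between the B6N animals, and the interaction of sex and strain was -1.54 (SE 0.746, adjusted p = 0.667). Id1 went the other way, with 1.19 in BFMI and -0.88 in B6N and an interaction of 2.06 (SE 0.759, adjusted p = 0.559). Tfrc gave -0.80 and 0.92, with an interaction of -1.72 (SE 1.02, adjusted p = 0.714). None of the 10 genes passed the interaction test of edgeR, in which 0.0300% of all genes were called, and with 1 animal in each cell these are differences between single animals.

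Bmp6, the endothelial ligand that induces hepcidin, was expressed at a low level. It stood at 2.64, 2.33 and 2.24 CPM in patBFMI 1 to 3, at 2.22, 2.47 and 2.82 CPM in matBFMI 1 to 3, at 1.11 and 1.48 CPM in the BFMI male and female, and at 2.02 and 1.59 CPM in the B6N male and female. All 6 F1 libraries lay above all 4 inbred libraries, and the F1 groups overlapped. F1 over inbred, the log2 fold change was 0.71 (SE 0.186, adjusted p = 0.0882), which did not pass the test. Bmp6 was the 1 of 10 genes with all F1 libraries higher, against 3.11% of all genes. This value changed sign with the scale. On the deposited RPKM, F1 over inbred gave -0.33 with a pseudocount of 1 and -0.61 with a pseudocount of 0.1 (limma). Without the filter on low counts it was called at 0.70 (adjusted p = 0.0477). Both BFMI animals were below both B6N animals, with -0.50 (SE 0.228, adjusted p = 0.283), and matBFMI over patBFMI gave 0.05 (adjusted p = 0.954). Bmp6 (ENSMUSG00000039004, chr13:38345107-38500302, plus strand) overlaps Txndc5 on the opposite strand, which stood at 124.0 to 175.0 CPM, and the strand setting of the counting is not given in the sources used here. Txndc5 gave 0.13 for F1 over inbred (adjusted p = 0.662). The summed sinusoidal endothelial markers were at 409.0 to 484.0 CPM in the F1 libraries, 389.0 to 408.0 in BFMI and 398.0 to 452.0 in B6N. Of these 12 markers edgeR called 0 for F1 over inbred and 1 between the strains, beside 2.05% and 6.67% of all genes. It was Lyve1, lower in BFMI (-1.13, adjusted p = 0.0286), with -1.65 to -0.64 when 1 inbred library was left out. The call was not kept in all of these fits. Lyve1 was called in 6 of the 9 other settings and missed the threshold on the RPKM scale (-0.92 to -0.75). The part of these markers in the Bmp6 values was not tested.

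Id1 (ENSMUSG00000042745, chr2:152736251-152737410, plus strand), the BMP target gene, was expressed at a low level. It stood at 1.26, 0.96 and 1.48 CPM in patBFMI 1 to 3, at 1.18, 1.06 and 2.57 CPM in matBFMI 1 to 3, at 1.93 and 4.39 CPM in the BFMI male and female, and at 4.14 and 2.26 CPM in the B6N male and female. Of the F1 libraries, only matBFMI 3, at 2.57 CPM, was above the lowest inbred libraries. F1 over inbred, the log2 fold change was -1.07 (SE 0.391, adjusted p = 0.204), and it ranged from -2.06 to 0.03 when single libraries were left out, the highest without the B6N male. Without the filter on low counts it was called at -1.09 (adjusted p = 1.46e-05). The counts behind these values were 45 to 226 reads per library.

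The CPM and the deposited RPKM of the same library did not keep a fixed ratio for the lowest members. For Bmp6 the RPKM per CPM ranged from 0.271 in patBFMI 2 to 1.25 in the BFMI male, a factor of 4.62, and for Id1 from 0.555 in patBFMI 2 to 2.19 in patBFMI 1, a factor of 3.95. For the other 8 genes that factor lay between 1.15 and 1.61. For Bmp6 the ratio was 0.781 to 1.25 in patBFMI 1 and the inbred libraries, which had more genes with a count. In the other F1 libraries it was 0.271 to 0.523. For Id1 these ranges were 1.19 to 2.19 and 0.555 to 1.24. RPKM were computed after quantile normalization. The part of that step and of the number of genes with a count in these ratios was not tested.

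**Figure D3:**
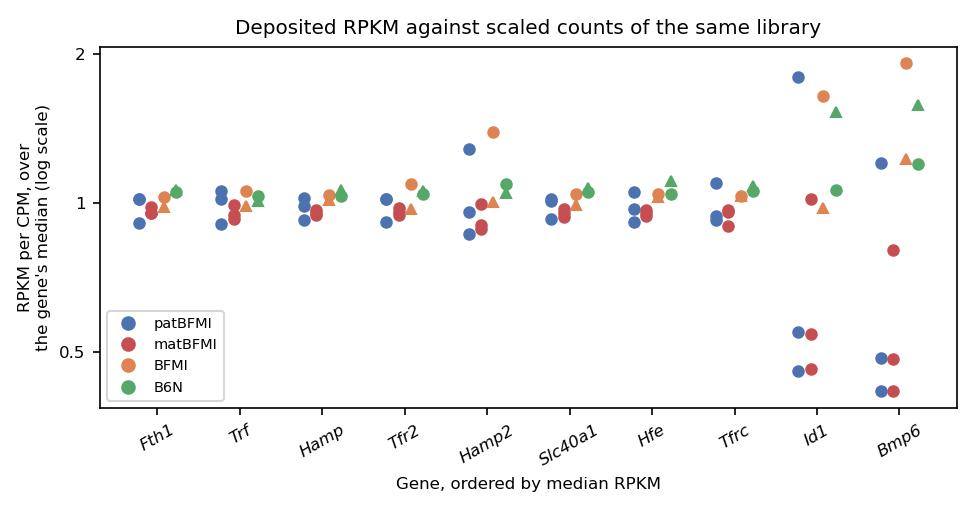
Ratio of the deposited RPKM to the TMM-scaled CPM of the same library, divided by the median ratio of the gene (y axis, log scale), for each of the 10 genes in order of median RPKM (x axis). Circles are males and triangles females, coloured by group, and Id1 and Bmp6, at the right, spread by a factor of 3.95 and 4.62 while the other genes spread by at most 1.61.

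Hfe (ENSMUSG00000006611, chr13:23702034-23710854, minus strand), which takes part in iron sensing at the hepatocyte surface, stood at 33.4, 42.4 and 34.3 CPM in patBFMI 1 to 3 and at 38.5, 38.6 and 43.7 CPM in matBFMI 1 to 3. The BFMI male and female had 44.2 and 37.3 CPM, and the B6N male and female had 33.8 and 30.4 CPM. Both BFMI animals were above both B6N animals, while the F1 groups overlapped. BFMI over B6N gave a log2 fold change of 0.34 (SE 0.135, adjusted p = 0.198), and matBFMI over patBFMI gave 0.12 (adjusted p = 0.761).

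Tfr2 (ENSMUSG00000029716, chr5:137569840-137587481, plus strand), the hepatocyte sensor of transferrin-bound iron, was even across the groups. It stood at 295.0, 302.0 and 288.0 CPM in patBFMI 1 to 3, at 303.0, 283.0 and 345.0 CPM in matBFMI 1 to 3, at 250.0 and 280.0 CPM in the BFMI male and female, and at 326.0 and 256.0 CPM in the B6N male and female. The groups overlapped in every comparison. Its log2 fold changes were 0.06 for matBFMI over patBFMI (SE 0.104), -0.13 for BFMI over B6N (SE 0.156), 0.08 for F1 over inbred (SE 0.128) and -0.09 for female over male (SE 0.156).

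Trf (ENSMUSG00000032554, chr9:103204001-103230444, minus strand), the plasma carrier of iron, is made by hepatocytes in large amounts, and its gene overlaps the annotated Gm20425. It stood at 577.0, 770.0 and 641.0 CPM in patBFMI 1 to 3, at 742.0, 683.0 and 802.0 CPM in matBFMI 1 to 3, at 792.0 and 811.0 CPM in the BFMI male and female, and at 552.0 and 789.0 CPM in the B6N male and female. The B6N male was the lowest, and the BFMI animals were both above the B6N animals by a narrow margin. BFMI over B6N gave a log2 fold change of 0.28 (SE 0.174, adjusted p = 0.476), and matBFMI over patBFMI gave 0.15 (SE 0.12, adjusted p = 0.728).

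Tfrc (ENSMUSG00000022797, chr16:32608920-32632794, plus strand), the receptor for uptake of transferrin, varied more within groups than between them. It stood at 18.3, 65.6 and 23.6 CPM in patBFMI 1 to 3, which hold the lowest and the highest of all libraries, and at 40.5, 40.6 and 28.0 CPM in matBFMI 1 to 3. The BFMI male and female had 52.6 and 30.2 CPM, and the B6N male and female had 22.8 and 43.1 CPM. All groups overlapped. The log2 fold change of matBFMI over patBFMI was 0.02 (SE 0.409, adjusted p = 0.994), and leaving out single libraries moved it between -0.29 and 0.78.

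Slc40a1 (ENSMUSG00000025993, chr1:45908068-45926523, minus strand) encodes ferroportin, the exporter that hepcidin acts on. It stood at 154.0, 147.0 and 179.0 CPM in patBFMI 1 to 3 and at 143.0, 141.0 and 147.0 CPM in matBFMI 1 to 3. The BFMI male and female had 143.0 and 192.0 CPM, and the B6N male and female had 173.0 and 151.0 CPM. The matBFMI libraries were all below the patBFMI libraries, though by a margin too small to show at 3 digits, and the strains overlapped. The log2 fold change of matBFMI over patBFMI was -0.17 (SE 0.104, adjusted p = 0.638), and 7.07% of all genes had all matBFMI libraries lower. The summed markers of Kupffer cells and macrophages, which also express ferroportin, were at 267.0 to 301.0 CPM in matBFMI and 329.0 to 348.0 CPM in patBFMI. All 13 of these markers had a log2 fold change below 0. By edgeR 0 were called and 9 had an unadjusted p below 0.05, against 9.85% of all genes, and DESeq2 called 0. Their part in the Slc40a1 values was not tested.

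Fth1 (ENSMUSG00000024661, chr19:9980598-9985098, plus strand) encodes the heavy chain of ferritin, the iron store. It stood at 288.0, 340.0 and 274.0 CPM in patBFMI 1 to 3, at 366.0, 315.0 and 367.0 CPM in matBFMI 1 to 3, at 495.0 and 377.0 CPM in the BFMI male and female, and at 348.0 and 334.0 CPM in the B6N male and female. The BFMI male was the highest, both BFMI animals were above both B6N animals, and the F1 groups overlapped. The log2 fold change was 0.21 for matBFMI over patBFMI (SE 0.116, adjusted p = 0.61), 0.34 for BFMI over B6N (SE 0.158, adjusted p = 0.288) and -0.36 for F1 over inbred (SE 0.126, adjusted p = 0.19). F1 over inbred was called by DESeq2 (-0.38, adjusted p = 0.0487). The processed pseudogene Fth-ps2 held 1 to 12 counts per library against 14624 to 50111 for Fth1.

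Over the 10 genes together, the direction of the cross gave no call. By edgeR 0 of 10 genes passed an adjusted p of 0.05, where 0.143% of 16797 genes were called, and 0 of 10 had an unadjusted p below 0.05, against 9.85% of all genes. DESeq2 also called 0 of 10, where it called 305 of 16797 genes. On log2 RPKM with a pseudocount of 1, limma called 0 of 10 but also 0 of all 34706 genes, so it tells nothing about the members. The median log2 fold change of the 10 genes was 0.09, beside -0.01 over all genes. Without the filter on low counts Hamp was called at 0.47 (adjusted p = 0.0117).

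Between the strains 0 of 10 genes were called by edgeR and 0 by DESeq2, where edgeR called 6.67% of 19974 genes and DESeq2 called 1671 genes. An unadjusted p below 0.05 was found for 1 of 10 genes, Hfe, against 18.3% of all genes. In 3 of 10 genes (Hfe, Trf and Fth1) both BFMI libraries were higher, against 20.8% of all genes, and in 1 of 10 (Bmp6) both were lower, against 23.0%. The median log2 fold change was -0.03, beside -0.04 over all genes.

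F1 over inbred, 0 of 10 genes were called by edgeR, where it called 2.05% of all genes. DESeq2 called 1 of 10, Fth1, where it called 871 of 19974 genes. An unadjusted p below 0.05 was found for 3 of 10 genes, Bmp6, Fth1 and Id1, against 16.6% of all genes. The median log2 fold change was -0.01, beside 0.01 over all genes. In this comparison the crosses, the lanes and, by the sample records, the diet differ together and cannot be told apart. The number of genes with a count also differed. It was 29942 to 34572 in the inbred libraries and 22095 to 26694 in all F1 libraries but patBFMI 1, and its part in the values was not tested. In the sex comparison the median was 0.09, beside 0.03 over all genes. All comparisons other than that of the F1 groups come from 1 fit and share libraries.

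**Figure D4:**
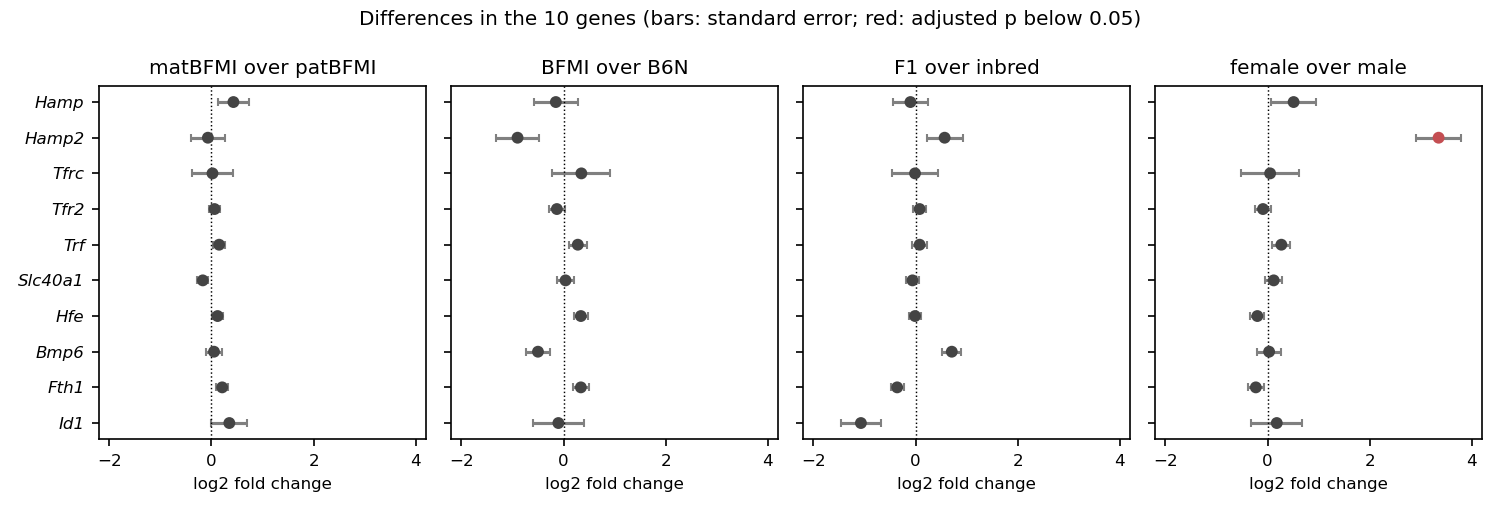
Log2 fold change (x axis) of the 10 genes in the comparisons of matBFMI over patBFMI, BFMI over B6N, F1 over inbred and female over male, with bars of 1 standard error from the edgeR fits. The point of Hamp2 for female over male, at 3.35, is the only one drawn in red for an adjusted p below 0.05.

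The lists of other pathway genes are counted without the 10 members. Of 15 further genes in the control of hepcidin, 1 rose and 0 fell in BFMI, a count near the 6.67% called over all genes between the strains. The gene was Hfe2, which encodes hemojuvelin, the BMP co-receptor needed for hepcidin expression. Hfe2 stood at 65.3 and 59.3 CPM in the BFMI male and female and at 39.6 and 36.3 CPM in the B6N male and female, while the F1 males lay between 45.1 and 56.0 CPM. BFMI was above B6N without overlap, and the F1 values fell between them. The log2 fold change was 0.72 (SE 0.128, adjusted p = 0.00804). The call was lost when any 1 inbred library was left out (0.71 to 0.74, adjusted p 0.0705 to 0.0988) and on the RPKM scale (0.63 to 0.66, adjusted p 0.0695 to 0.106). Of the 15 control genes, 0, 4, 6 and 0 had an unadjusted p below 0.05 in the comparisons of cross, strain, F1 over inbred and sex. The shares of all genes were 9.85%, 18.3%, 16.6% and 7.80%. For F1 over inbred edgeR called 0 of the 15 and DESeq2 called 1, where it called 871 of 19974 genes. Of 7 further BMP target genes, 0 were called in any comparison by edgeR, by DESeq2 or by limma on RPKM. By edgeR 0.143%, 6.67%, 2.05% and 0.556% of all genes were called for cross, strain, F1 over inbred and sex. DESeq2 called 305 of 16797 genes for the cross, then 1671, 871 and 384 of 19974 genes. For the cross limma, with a pseudocount of 1, called 0 of 34706 genes. For 7 genes, 0 calls are near these shares. Of these 7, 1 had an unadjusted p below 0.05 between the F1 groups, 1 between the strains, 1 for F1 over inbred and 0 for sex, beside 9.85%, 18.3%, 16.6% and 7.80% of all genes. Id3, with the smallest p between the F1 groups, gave 0.36 (adjusted p = 0.438).

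Of 12 further genes of iron uptake and export, 2 rose and 0 fell in BFMI, where 6.67% of all genes were called. Steap3, a ferrireductase of the transferrin cycle, was at 19.5 and 15.3 CPM in BFMI against 7.12 and 6.89 CPM in B6N (male and female each), a log2 fold change of 1.31 (SE 0.173, adjusted p = 0.00141). Slc48a1, a haem transporter, was at 36.1 and 27.7 CPM against 16.8 and 16.9 CPM, a log2 fold change of 0.91 (SE 0.151, adjusted p = 0.00522). The strains did not overlap for either gene. Steap3 kept its call whichever inbred library was left out, while that of Slc48a1 was lost without the BFMI male (0.75, adjusted p = 0.108) or the B6N male (0.72, adjusted p = 0.118). On the RPKM scale both missed the threshold, with 0.71 to 0.97 for Steap3 (adjusted p 0.281 to 0.35) and 0.73 to 0.79 for Slc48a1 (adjusted p 0.0801 to 0.114). F1 over inbred, 1 of these 12 rose and 1 fell, where 2.05% of all genes were called. Lrp1, a receptor for the haem carrier hemopexin among other ligands, rose by 0.82 on the log2 scale (adjusted p = 0.0349). Hpx, which encodes hemopexin, fell by 0.48 (adjusted p = 0.0474). Without the BFMI male neither was called (0.82 with adjusted p = 0.381 and -0.49 with adjusted p = 0.446), and Lrp1 and Hpx kept their calls in 4 and 3 of the 10 fits that left out 1 library. Scara5, a ferritin receptor, had the smallest p of this list between the F1 groups. It stood at 10.7, 21.2 and 13.8 CPM in patBFMI and 4.09, 7.23 and 4.35 CPM in matBFMI, with no overlap, and gave a log2 fold change of -1.55 (SE 0.276, adjusted p = 0.0964 by edgeR). DESeq2 called it (-1.56, adjusted p = 2.59e-07). Of 9 further genes of iron storage and sensing, 0 were called by edgeR, and 2, 3, 1 and 1 of them had an unadjusted p below 0.05 in the comparisons of cross, strain, F1 over inbred and sex, beside 9.85%, 18.3%, 16.6% and 7.80% of all genes. DESeq2 called 0, 1, 0 and 0 of them, beside 305 of 16797 genes for the cross and then 1671, 871 and 384 of 19974 genes. Ftl1, the light chain of ferritin, has copies named as pseudogenes, of which Ftl1-ps1 held 17246 to 54001 counts per library. Ftl1 held 14842 to 57016. How reads were split between these genes was not tested, so the level of Ftl1 is uncertain.

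Of 17 genes of mitochondrial iron and haem, 3 rose and 1 fell in BFMI, where 6.67% of all genes were called. Alad, an early enzyme of haem synthesis, was at 182.0 and 152.0 CPM in the BFMI male and female against 61.3 and 54.0 CPM in B6N, a log2 fold change of 1.53 (SE 0.131, adjusted p = 7.64e-05). Cpox, a later enzyme of the same path, gave 0.73 (adjusted p = 0.0222), and Slc25a37, a mitochondrial iron importer, gave 0.46 (adjusted p = 0.0423). Alas1, the rate-limiting enzyme of haem synthesis in liver, fell by 1.65 on the log2 scale (SE 0.381, adjusted p = 0.029), with 151.0 and 47.2 CPM in BFMI against 371.0 and 189.0 CPM in B6N. Leaving out any 1 inbred library ended the calls of Cpox (0.71 to 0.75, adjusted p 0.134 to 0.185), Slc25a37 (0.41 to 0.51, adjusted p 0.137 to 0.284) and Alas1 (-2.0 to -1.30, adjusted p 0.11 to 0.277), but not that of Alad (1.49 to 1.57, adjusted p 0.00249 to 0.00465). Of these genes, Alad stayed below an adjusted p of 0.05 in all 9 other settings. The summed erythroid markers moved the same way as Alad, at 737.0 to 922.0 CPM in BFMI, 228.0 to 397.0 CPM in B6N and 525.0 to 604.0 CPM in the F1 libraries. Of 9 erythroid markers tested, 4 rose in BFMI, where 6.67% of all genes were called, and 9 had a value above 0. The 4 were all globin genes, with log2 fold changes of 1.40 to 1.72. Their part in the strain differences of haem genes was not tested. Between the F1 groups Alas1 stood at 93.6, 121.0 and 80.8 CPM in patBFMI and at 199.0, 340.0 and 527.0 CPM in matBFMI. The groups did not overlap, with a log2 fold change of 1.84 (SE 0.313, adjusted p = 0.0848) that DESeq2 called (1.84, adjusted p = 0.00171).

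**Figure D5:**
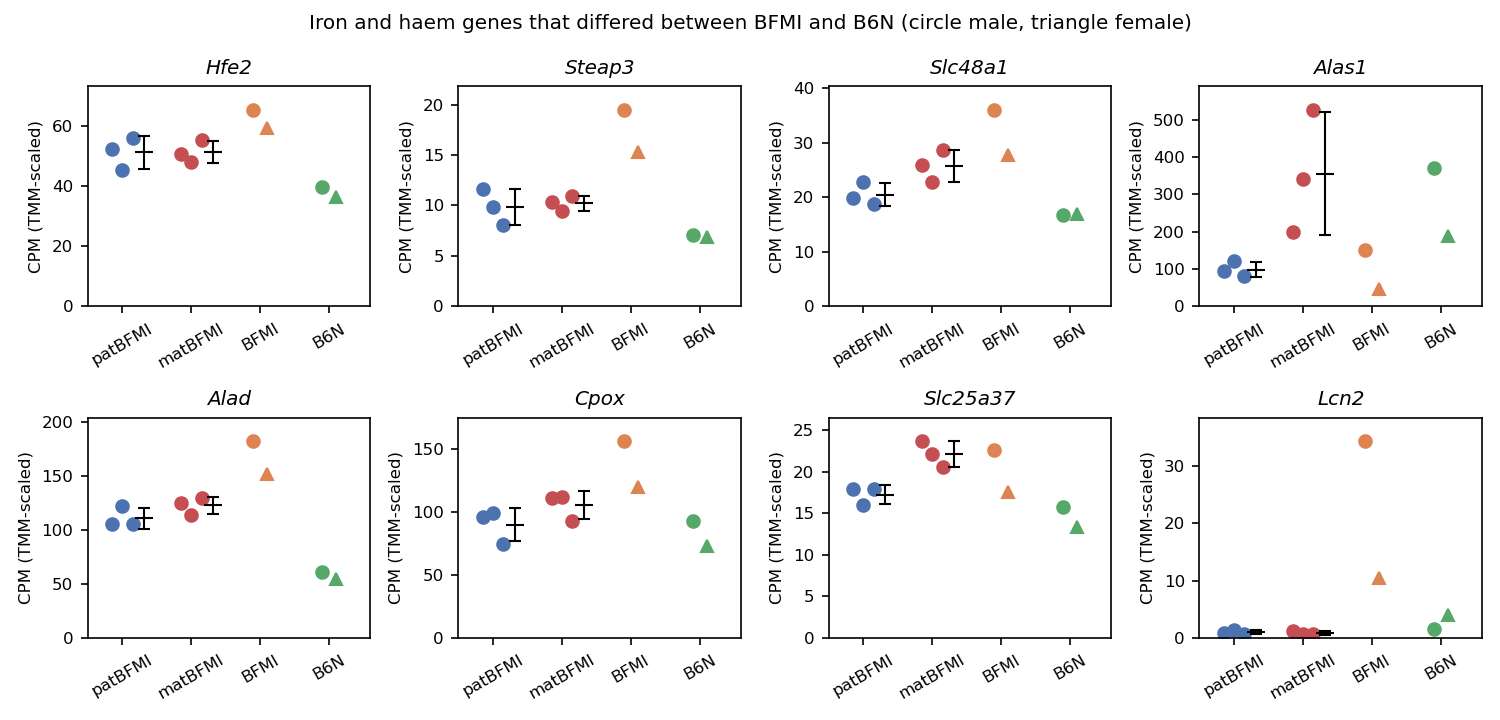
CPM after TMM scaling (y axis, linear, from 0) of 8 iron, haem and inflammation genes that differed between BFMI and B6N, in every library by group. Circles are males, triangles females, and the black bars are the F1 mean ± SD (n = 3). For Alad the BFMI points, at 152.0 and 182.0 CPM, stand above all F1 points, and the B6N points, at 54.0 and 61.3 CPM, below them.

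Of 14 inflammatory genes that act on or respond beside hepcidin, 7 fell and 0 rose for F1 over inbred, where 2.05% of all genes were called and Hamp itself gave -0.10 and was not called. All 7 calls were lost without the BFMI male, and over all genes 13 calls were left of 410. Lcn2, a siderophore-binding protein of the acute phase, fell by 3.29 on the log2 scale (adjusted p = 0.0121), Saa2 by 2.70 (adjusted p = 0.00193) and Saa1 by 2.02 (adjusted p = 0.0133). Lcn2 was highest in the BFMI male, at 34.3 CPM, and without it the value was -1.48 (adjusted p = 0.329). Without that library adjusted p was 0.102 for Saa2, 0.167 for Saa1, 0.38 for Saa3, 0.583 for Il1b, 0.167 for Hp and 0.444 for Orm2. The others were Il1b, Saa3, Hp and Orm2, with log2 fold changes from -1.54 to -0.49. Il1b, Hp and Orm2 kept their calls in 5, 3 and 3 of the 10 fits that left out 1 library. Of 13 Kupffer cell and macrophage markers 5 fell in the same comparison, beside the same 2.05% of all genes. Without the BFMI male 1 of these markers, Marco, was called (lost without the B6N male, adjusted p = 0.0799), and adjusted p was 0.0967 for Lyz2, 0.278 for Csf1r, 0.276 for C1qb and 0.214 for Cd5l. The sum of the 13 was 267.0 to 348.0 CPM in the F1 libraries, 323.0 to 388.0 in BFMI and 536.0 to 544.0 in B6N. Their part in the inflammatory genes was not tested. Between the strains, where 6.67% of all genes were called, 6 of the 13 fell in BFMI, of which Adgre1, C1qb and Lyz2 kept their calls whichever inbred library was left out. Of the 14 inflammatory genes, Lcn2 alone rose there, by 2.87 (adjusted p = 0.0204), a call lost without the BFMI male (1.41, adjusted p = 0.159) or the B6N male (1.37, adjusted p = 0.133). In the sex comparison edgeR called 0 genes of the 6 pathway lists, in each of which between 0 and 4 genes had an unadjusted p below 0.05 (7.80% of all genes). DESeq2 called 1 of iron uptake and export and 1 of the inflammatory list, where it called 384 of 19974 genes. Of 9 erythroid markers edgeR called 1, Alas2, lower in females (log2 fold change -1.67, adjusted p = 0.0484), beside 0.556% of all genes. Its value ranged from -2.39 to -0.99 when 1 inbred library was left out, and the call was not kept in all of these fits. Alas2 was called in 5 of the 9 other settings.

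The genes whose pattern was most like that of Hamp over the 10 libraries were sought among 13152 genes with a mean of at least 1 CPM. By Pearson's r of log2 CPM they were Tmem241 (0.88), Msln (0.88), Hmox1 (0.87), Afap1l2 (0.86) and Ecscr (0.85). Without the 2 libraries farthest from the median of Hamp, matBFMI 3 and the B6N female, r was 0.53 for Tmem241, 0.58 for Msln, 0.75 for Afap1l2 and 0.60 for Ecscr. Hmox1, which encodes the haem-degrading haem oxygenase 1, kept 0.88, with a Spearman's rho of 0.95 over all 10. For Hamp2 the 5 most alike were Sytl5 (0.94), Xist (0.93), Gimap8 (0.92), Rdh16f2 (0.92) and Cpq (0.92). Without the 2 females these fell to between 0.47 and 0.65, so that the likeness to Hamp2 rests on the females. These correlations describe libraries that share sequencing lanes and groups, and they were picked as the highest of all genes.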

How the data were processed

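The study sequenced liver RNA of 10 mice on an Illumina HiSeq2000 after the RiboZero protocol, while the molecule field of the sample records reads polyA RNA. Tools listed in the submitters' processing notes are Bowtie2 2.2.6, TopHat2 2.10, Picard 1.99 and Trimmomatic 0.32, whereas the study's methods name BWA. The authors assigned reads to Ensembl genes of GRCm38 in union mode and deposited raw counts per gene. The authors also deposited RPKM, computed after quantile normalization between samples. Samples were grouped by their records, and 3 columns of animals with no sample record were not used. Of 41388 genes, 40254 were matched by identifier to GENCODE M21 for symbols and positions.

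Counts were scaled by TMM and tested with the quasi-likelihood test of edgeR 4.0.16 in R 4.3.3, with Benjamini-Hochberg adjustment over all genes tested and a threshold of 0.05. The F1 groups were fitted alone, keeping genes that reached 10 counts in 3 or more libraries. Strain, F1 against inbred and sex came from 1 fit of all 10 libraries with terms for group and sex and kept genes that reached 10 counts in 2 or more libraries. Errors are SDs between animals or standard errors. For edgeR the standard error was derived as the absolute log2 fold change divided by the square root of the test's F statistic. In the F1 fit p-values measure the spread between animals of a group. In the fit of 10 libraries each strain gave 1 animal of each sex, so the spread was shared with the F1 males. The strain and sex p-values thus do not measure the spread between inbred animals of the same strain and sex. The biological coefficient of variation was 15.9% in the F1 fit and 17.7% in the fit of 10 libraries. The edgeR test was also run on simulated counts, for the F1 cross and for the sex comparison, and the other steps were not. Alternatives tried were RLE scaling, library size only, DESeq2 1.42.0, other filters on low counts, limma 3.58.1 on log2 RPKM with pseudocounts of 1 and 0.1, the offspring number as a replicate block, other sets of libraries and leaving out each library. The interaction of sex and strain was added after the data were seen.

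The members and the gene lists were chosen with earlier results of these data known. Genes looked at singly were all members, every further list gene past the threshold (at most 8 per list and comparison) and the 2 of each list with the smallest p between the F1 groups. To these came the 5 most correlated with Hamp and Hamp2 on log2 of CPM plus 0.5. Not all of these genes are named above, among them the markers Rgs5, Cps1 and Ptprc, which passed the threshold in a comparison. Of the further names looked for, Ahsp was not matched, and hemojuvelin was matched as Hfe2. Motifs were sought in the RefSeq windows with Python 3.11.15, pandas 2.3.3 and numpy 2.4.6, and figures were drawn with matplotlib 3.10.9. Allele shares were not analysed here.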

Additional observations from a re-analysis of the deposited data

How the results depend on the processing

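Of the members, only the sex difference of Hamp2 was called by edgeR, and it kept its direction in every alternative run, but with any inbred library left out 0 of 10 members were called. Without the filter on low counts 1 member was called for the F1 cross (beside 696 of 34706 genes) and 1 for strain (1930 of 38778 genes). For F1 over inbred 3 were called without it (1410 of 38778 genes) and 1 by DESeq2 (871 of 19974 genes). With only the 4 inbred libraries 1 was called for strain (1499 of 19369 genes). Most changes of direction below concern log2 fold changes that passed no test, and the cause was not tested. Genes called for the F1 cross numbered 24, and 56 with library size only (45 higher and 11 lower, against 16 and 8), 305 by DESeq2, 696 without the filter, 15 with a filter at 1 CPM, 12 in the fit of all 10 libraries, and 0, 2 and 2 by limma on log2 RPKM with pseudocount 1, with 0.1, and with 1 over genes above 0.5 RPKM. In the same order the RPKM settings called 605, 522 and 367 genes for strain against 1332, 1256, 823 and 262 for F1 over inbred against 410, and 261, 209 and 49 for sex against 111. DESeq2 called 871 genes for F1 over inbred and 384 for sex, no filter gave 1410 and 582, and only the 4 inbred libraries gave 419 for sex.

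With library size only, Hamp2 moved to 0.00 in the F1 cross. Without the filter, Tfrc moved to 0.00 for F1 over inbred and -0.02 for sex, and Bmp6 to -0.04 for sex. On RPKM with pseudocounts of 1 and 0.1, the values for the F1 cross were -0.11 and -0.14 for Bmp6 and -0.05 and -0.01 for Id1. For strain Slc40a1 was at -0.02 on both. For F1 over inbred they were -0.06 on both for Tfr2, -0.03 on both for Trf and -0.33 and -0.61 for Bmp6, and for sex -0.05 and -0.08 for Bmp6. The values at pseudocount 1 were the same when only genes above 0.5 RPKM were fitted. In the 8 male libraries alone Tfrc was at 0.05 for F1 over inbred.

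Leaving out single libraries, genes called ranged from 7 to 63 for the F1 cross, from 536 to 799 for strain, from 13 (without the BFMI male) to 937 (without patBFMI 1) for F1 over inbred and from 38 to 152 for sex. Log2 fold changes for the F1 cross ranged from -0.39 to 0.27 for Hamp2, -0.29 to 0.78 for Tfrc, -0.02 to 0.12 for Tfr2, -0.04 to 0.14 for Bmp6, -0.16 to 0.58 for Id1 and -0.54 to 0.01 for Slc4a1. For strain they ranged from -0.92 to 0.62 for Hamp, -0.52 to 1.20 for Tfrc, -0.38 to 0.16 for Tfr2, -0.28 to 0.38 for Slc40a1 and -1.10 to 0.99 for Id1. For F1 over inbred they ranged from -0.82 to 0.69 for Hamp, -0.80 to 0.89 for Tfrc, -0.20 to 0.33 for Tfr2, -0.16 to 0.30 for Trf, -0.39 to 0.26 for Slc40a1, -0.11 to 0.02 for Hfe and -2.06 to 0.03 for Id1. For sex they ranged from -0.26 to 1.28 for Hamp, -0.80 to 0.92 for Tfrc, -0.37 to 0.17 for Tfr2, -0.22 to 0.44 for Slc40a1, -0.37 to 0.42 for Bmp6 and -0.90 to 1.19 for Id1.

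The offspring numbers 1 to 3 of the F1 groups share only a number: deviations from the group means correlated at 0.30, -0.058 and 0.104 between same-numbered libraries, and not every library correlated best with its own number. With the number as a replicate block 175 genes were called against 24, Hamp2 was at 0.01, and Scara5 and Alas1 were called (adjusted p 0.00109 and 0.0321). Where 1 library was left in a strain, it was taken to vary like the other groups.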
